A study of Mus musculus with 6 samples.

Results

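Whole tongue grafts of the mouse melanoma line B16F10 were read for 34 genes tied to the transcription factor ATF4: enzymes of serine, one-carbon and amino acid metabolism, amino acid transporters, and the stress factors around ATF4 itself. The genes were taken by symbol from a list, and all 34 were found among 55487 gene IDs and passed the filter on low counts, with between 19 and 11434 counts per library. In grafts from the arm where nociceptive nerves reaching the lymph nodes were inhibited, all 34 genes had a lower fitted level than in the controls, against 49.0% of the 15666 genes tested. The median log2 fold change (inhibition over control) was -0.36, against 0.00485 over all genes tested. None of the 34 passed the test across all genes (0 called at an edgeR adjusted p under 0.05, where 0.0383% of all genes were called, 0.00638% as lower and 0.0319% as higher), so the differences below are given as values. The lowest edgeR adjusted p was 0.162, for Phgdh. DESeq2 called 6 of the 34 lower, against 1.23% of all genes called lower by that tool and 2.23% called higher.

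The grafts, labelled WT, grew in C57BL/6J mice, and each group had 3 samples. In all mice the cervical lymph nodes had been injected 6 weeks before grafting with a retrograde vector. One vector, AAV2/retro-Trpv1-mCherry, carries a fluorescent protein alone. The other, AAV2/retro-Trpv1-hM4D(Gi)-mCherry, adds a designed receptor that silences neurons once its ligand, Deschloroclozapine, is given; the labels do not say which vector each sample had. The ligand was given 2 times per day for 12 days by the design text, whereas the sample labels call the controls vehicle-treated, so whether the controls received the ligand is unclear. The vectors are named after Trpv1, a channel gene of nociceptive neurons, and the counted genes include no vector sequence, so the counts give no check of the manipulation. Whether each sample is a different mouse is not stated, so a p-value here covers the spread among these 6 samples, which may be technical. Tissue other than tumour was removed before RNA was taken from the entire graft, and in such bulk RNA fewer cells of a type cannot be told apart from less RNA per cell.

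ATF4 is the main effector of the integrated stress response. Kinases that sense amino acid shortage, endoplasmic reticulum stress, haem shortage or double-stranded RNA phosphorylate the translation factor eIF2, which lowers protein synthesis overall while the Atf4 message is translated more. ATF4 then switches on genes that make, import and load amino acids onto tRNA, together with factors such as CHOP (Ddit3) and feedback genes that end the response. Melanoma cells are known to use this program when nutrients run short in a tumour, and serine made by the pathway feeds one-carbon units into nucleotide synthesis. Because much of ATF4 control acts on translation, the level of the Atf4 message is not a direct reading of ATF4 protein.

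Library totals lay between 14477277 and 20972494 counts, with inhibition 1 the smallest library and inhibition 3 the largest. Genes of melanocytes marked the grafts as melanoma: all 10 markers were tested, and their summed level was 16545 to 24373 CPM (counts scaled to library size with TMM factors) in controls and 23247 to 28145 CPM under inhibition. The groups overlapped for the melanocyte list. Marker lists of some other cells, but not of all, moved with the groups. All 12 skeletal muscle genes were higher under inhibition (summed 836 to 1878 CPM in controls and 2299 to 3899 CPM under inhibition), as were all 7 fibroblast genes (606 to 928 and 1124 to 1463 CPM). The endothelial list did not overlap (141 to 247 and 269 to 316 CPM), whereas the epithelial list (1151 to 2656 and 1490 to 4730 CPM) and the macrophage list (184 to 329 and 316 to 379 CPM) did. All 8 neutrophil genes were lower (36.8 to 93.2 and 8.62 to 30.3 CPM). Of these marker genes edgeR called 0 over all genes tested, whereas DESeq2 called 5 of 12 muscle, 5 of 7 fibroblast, 2 of 9 epithelial, 2 of 6 endothelial and 1 of 7 macrophage genes higher and 3 of 8 neutrophil genes lower. Of all genes DESeq2 called 2.23% higher and 1.23% lower. The 8 proliferation genes overlapped between the groups, at 2517 to 2775 and 2575 to 2933 CPM. Of 4 T cell markers 0 passed the count filter, and Cd3e was at 0 counts in 3 libraries. The part of these shifts in the values below was not tested. An alternative scaling and a muscle covariate are given at the end as values only.

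Taken one library at a time, the 34 genes were not lowered evenly. Inhibition 1 was the lowest of the 6 libraries for 31 of the 34 genes, although it was the lowest for only 18.5% of all genes tested. Control 2 was the highest for 27 of them, against 12.2% of all genes. Inhibition 3 was the highest of the inhibition libraries for 26. The mean log2 level of the 34 genes, set against the mean of the controls, was -0.11 in control 1, 0.16 in control 2 and -0.05 in control 3, and -0.77, -0.36 and -0.15 in inhibition 1, 2 and 3. The groups did not overlap by this mean, but inhibition 3 lay only just below control 1. Within the inhibition group the highest library stood at a median of 1.51 times the lowest, against 1.25 times within the controls; over all genes tested these ratios were 1.21 and 1.25. In 25 genes all 3 inhibition libraries lay below the mean of the controls. For this count and for the 26 genes highest in inhibition 3 the share over all genes was not computed.

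**Figure D1:**
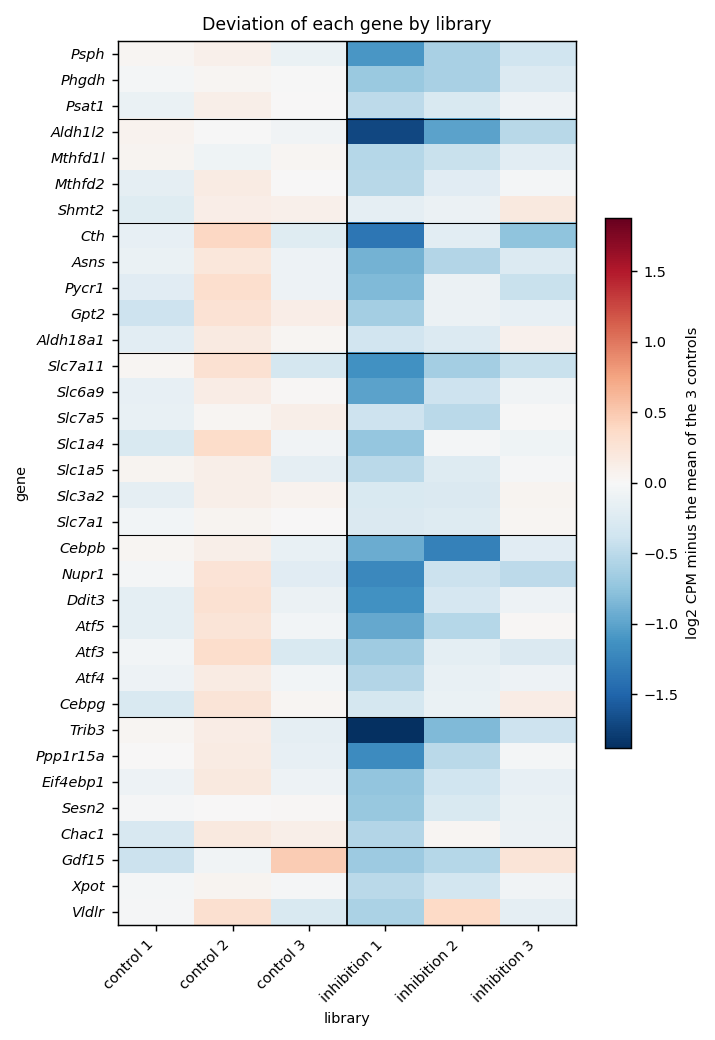
Deviation of each of the 34 genes in each library, as log2 CPM minus the mean of the 3 controls; rows are genes in blocks by role, columns are libraries, blue is lower and red is higher. Inhibition 1 holds the lowest value in 31 of 34 rows, and Trib3 and Aldh1l2 show the darkest cells there.

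At an unadjusted edgeR p under 0.05, 12 of the 34 genes (35.3%) were lower and 0 were higher, against 7.00% of all genes tested that were lower and 8.36% that were higher. In 12 genes every inhibition library lay below every control library, where 11.0% of all genes did; the opposite held for 0 of the 34 and 10.2% of all genes. These counts share 11 genes: Phgdh, Psph, Mthfd1l, Aldh1l2, Asns, Slc7a11, Cebpb, Nupr1, Sesn2, Eif4ebp1 and Xpot. Psat1 had the low p with overlapping groups, and Trib3 the separated groups without the low p. Single libraries moved these counts. Without inhibition 3, 23 genes were lower at that p (7.25% of all genes). In that fit edgeR called 6 of the 34 (Phgdh, Psph, Mthfd1l, Aldh1l2, Asns and Cebpb), with 1.37% of all genes called in either direction. Without control 2 only 6 were lower at that p, where 8.55% of all genes were. Without inhibition 1, 9 were lower (4.04% of all genes) and the median log2 fold change was -0.23; the medians by role, given below, then ran from -0.42 for serine synthesis to -0.14 for the transporters. That a list of ATF4 genes was lower in these libraries was known when the genes were chosen, so the counts are a description and no independent support.

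**Figure D2:**
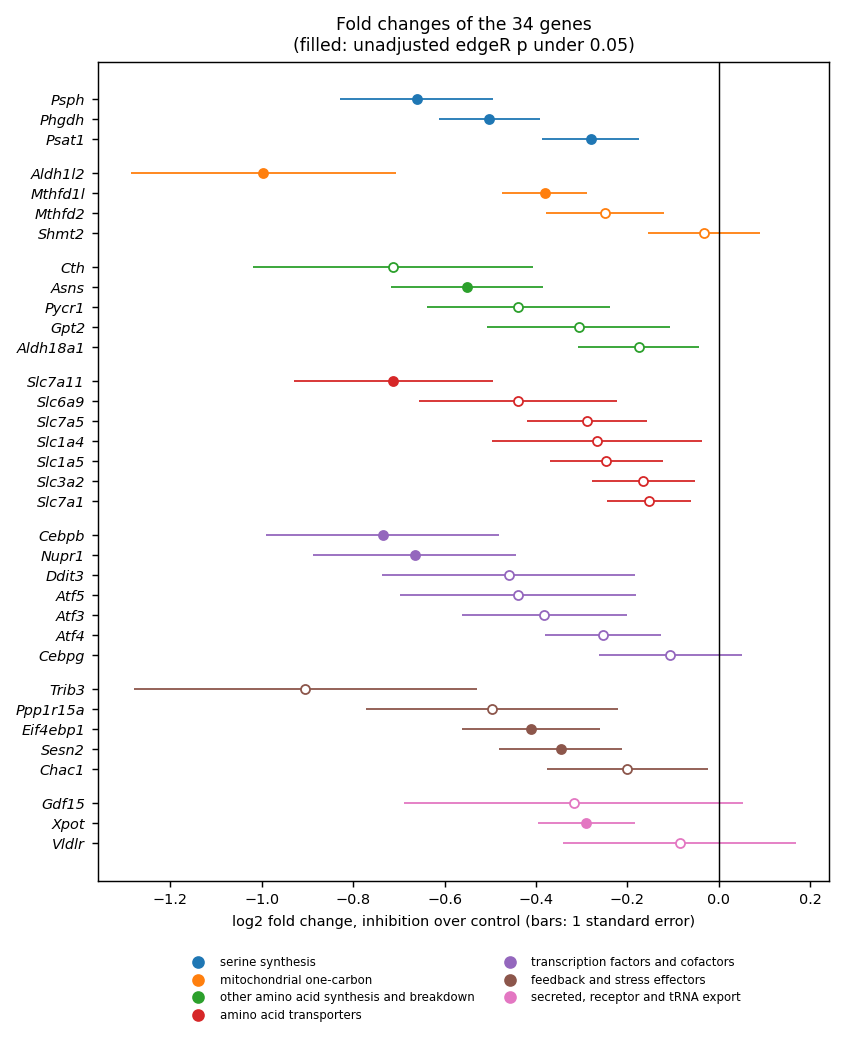
Log2 fold change of each gene, inhibition over control, with bars of 1 standard error from edgeR (3 libraries per group); colours mark roles and filled points an unadjusted edgeR p under 0.05. All 34 points lie left of 0, from -0.997 for Aldh1l2 to -0.03 for Shmt2, and 12 are filled.

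Serine synthesis showed lower values at all 3 of its steps, with a median log2 fold change of -0.50. Phgdh, which takes the first step from the glycolytic intermediate 3-phosphoglycerate, stood at 365, 386 and 373 CPM in controls and 232, 247 and 315 CPM in inhibition 1, 2 and 3. Every inhibition library was below every control, and the controls lay close together (375 ± 10.6 against 264 ± 44.5 CPM, SD, n = 3). The log2 fold change was -0.50 (standard error 0.11), a level 29.4% lower in the plain ratio of the fit, with an edgeR adjusted p of 0.162 and a DESeq2 adjusted p of 0.00228. Both adjusted p-values were the lowest of the 34 genes for their tool.

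Psph, the phosphatase of the last step, stood at 57.3, 60.2 and 51.2 CPM in controls and 26.3, 36.6 and 43.2 CPM under inhibition. The groups did not overlap, and inhibition 1 was at the bottom. Its log2 fold change of -0.66 (standard error 0.17; edgeR adjusted p = 0.185, DESeq2 0.00659) was the largest of the 3 enzymes. Psph overlaps Cct6a on the other strand, and whether the counting used strand is not given in the sources used here; Cct6a held 675% of the counts of Psph and had a log2 fold change of -0.06. Psat1, the aminotransferase between them, had 208 to 244 CPM in controls and 162 to 213 CPM under inhibition, overlapping by inhibition 3 (log2 fold change -0.28, edgeR adjusted p = 0.265).

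The mitochondrial folate enzymes carry serine's carbon onward to formate, and they spread widely, with a median log2 fold change of -0.31. Aldh1l2, which oxidises formyl-folate to carbon dioxide with gain of NADPH, had the largest fitted difference of the 34 genes with the main settings, though not with the muscle covariate described at the end (-0.56). It stood at 242, 230.1 and 220.2 CPM in controls and 70.5, 115 and 161 CPM in inhibition 1, 2 and 3. The controls were tight and the inhibition libraries were spread over more than the whole range of the controls, all below them (log2 fold change -0.997, standard error 0.29, edgeR adjusted p = 0.230). D10Wsu102e, which overlaps it on the other strand with 43.1% of its counts, had a log2 fold change of -0.20.

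Mthfd1l, the synthetase that releases formate from the mitochondrion, stood at 354, 323 and 353 CPM in controls and 237, 257 and 298 CPM under inhibition. All inhibition libraries were lower than all controls (log2 fold change -0.38, standard error 0.09, edgeR adjusted p = 0.166, DESeq2 0.0141). Mthfd2, a dehydrogenase and cyclohydrolase of the same route, overlapped between the groups, at 211 to 264 and 165 to 230.1 CPM (log2 fold change -0.25, and -0.14 without inhibition 1 or -0.37 without inhibition 3). Shmt2, which splits serine into glycine and a one-carbon unit, stood at 225 to 288 CPM in controls and 233 to 299 CPM under inhibition, a log2 fold change of -0.03 (standard error 0.12) whose sign turned when some single libraries were left out.

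Among enzymes of other amino acids the median log2 fold change was -0.44. Asns, asparagine synthetase and a much used reporter of amino acid shortage, stood at 249, 315 and 252 CPM in controls and 147, 184 and 226 CPM under inhibition. The groups did not overlap (log2 fold change -0.55, standard error 0.17, edgeR adjusted p = 0.223, DESeq2 0.0144). Cth, which makes cysteine from cystathionine, stood at 17.9, 26.2 and 17.1 CPM in controls and 7.71, 17.5 and 11.9 CPM under inhibition. Inhibition 2 lay above control 3, so these groups overlapped despite a log2 fold change of -0.71 (standard error 0.31, edgeR adjusted p = 0.329).

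Of the proline enzymes, Pycr1, the final reductase, had a log2 fold change of -0.44 (17.6 to 25.4 CPM in controls, 11.5 to 18.9 CPM under inhibition). Aldh18a1, which starts the route from glutamate, had -0.18, with 142 to 184 and 128 to 173 CPM. Gpt2, the mitochondrial alanine aminotransferase, had -0.31, with 35.5 to 56.2 and 30.1 to 43.3 CPM. All of these overlapped between the groups, and without inhibition 1 the values were -0.29 for Pycr1, -0.10 for Aldh18a1 and -0.17 for Gpt2. Without control 2 they were -0.28, -0.10 and -0.19. Without control 1 Aldh18a1 had -0.28 and Gpt2 -0.48, and without inhibition 3 Aldh18a1 had -0.33.

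**Figure D3:**
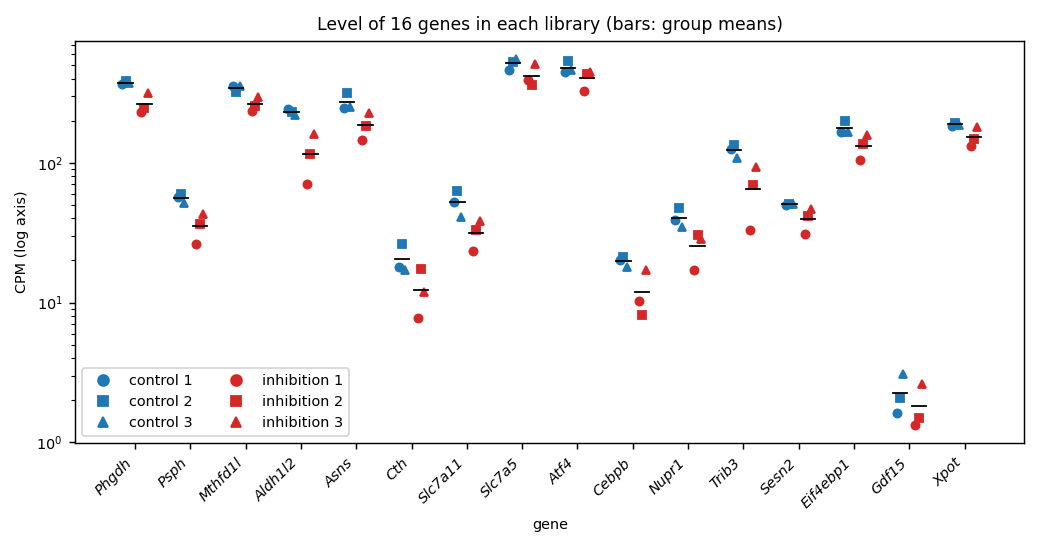
CPM on a log axis for 16 genes in each of the 6 libraries; blue marks control and red inhibition libraries, shapes mark the replicate number, and black bars are group means. The genes are those with the smallest p of each role, with Atf4 and Trib3 added. Red points lie wholly below blue ones for 12 of the 16 genes, and overlap them for Cth, Slc7a5, Atf4 and Gdf15. These 12 are all the genes of the 34 with separated groups, so their share here largely follows from the choice. Over all genes tested, 11.0% were separated in this direction.

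The 7 amino acid transporters had a median log2 fold change of -0.27. Slc7a11, the light chain of the cystine-glutamate exchanger that supplies cysteine for glutathione, stood at 52.5, 62.9 and 41.04 CPM in controls and 23.3, 33.1 and 38.5 CPM under inhibition. The groups did not overlap, although control 3 and inhibition 3 were close (log2 fold change -0.71, standard error 0.22, edgeR adjusted p = 0.227, DESeq2 0.0144). Slc7a5, the light chain of the large neutral amino acid transporter LAT1, stood at 466, 525 and 553 CPM in controls and 391, 362 and 512 CPM under inhibition. Inhibition 3 lay among the controls (log2 fold change -0.29, standard error 0.13, edgeR adjusted p = 0.340).

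Slc3a2, the heavy chain that both of these transporters need at the membrane, had a smaller difference, with 335 to 406 CPM in controls and 309 to 391 CPM under inhibition (log2 fold change -0.16, standard error 0.11). The difference between the chains was not tested. Slc7a1, which imports cationic amino acids, had -0.15, with 362 to 391 and 313 to 385 CPM. The neutral amino acid carriers Slc1a5, for glutamine, and Slc1a4, for alanine, serine and cysteine, had log2 fold changes of -0.25 and -0.27. Slc6a9, the glycine transporter GLYT1, stood at 15.99 to 19.7 CPM in controls and 8.83 to 17.1 CPM under inhibition (log2 fold change -0.44); B4galt2, on its other strand with 69.2% of its counts, had -0.01. Groups overlapped for 6 of the 7 transporters. Without inhibition 1 the log2 fold changes were -0.23 for Slc6a9, -0.09 for Slc1a4 and -0.14 for Slc1a5. Without inhibition 3 they were larger, at -0.68 for Slc6a9, -0.38 for Slc1a5, -0.46 for Slc7a5, -0.30 for Slc3a2 and -0.27 for Slc7a1. Leaving out a control moved Slc1a4 to -0.40 (control 1) or -0.09 (control 2) and Slc3a2 to -0.25 (control 1).

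The transcription factors had a median log2 fold change of -0.44. Atf4 itself stood at 447, 534 and 462 CPM in controls and 326, 436 and 448 CPM under inhibition. Inhibition 3 was just above control 1, so the groups overlapped, with a log2 fold change of -0.25 (standard error 0.13, edgeR adjusted p = 0.376). Without inhibition 1 the Atf4 value was -0.13. Nupr1, a small stress-induced chromatin protein, stood at 39.2, 47.8 and 34.6 CPM in controls and 17.2, 30.3 and 28.6 CPM under inhibition. Its groups did not overlap (log2 fold change -0.67, standard error 0.22, edgeR adjusted p = 0.247, DESeq2 0.0366).

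Cebpb, a partner of ATF4 that is also a main factor of myeloid cells, stood at 20.3, 21.3 and 17.96 CPM in controls and 10.3, 8.15 and 17.2 CPM under inhibition. The groups did not overlap, but control 3 and inhibition 3 nearly met (log2 fold change -0.74, standard error 0.26, edgeR adjusted p = 0.251). Neutrophil genes were lower in the same libraries, at summed levels of 93.2, 36.8 and 73.2 CPM in controls and 8.62, 9.48 and 30.3 CPM under inhibition, and their part in the Cebpb value was not tested. Tmem189, annotated across Cebpb on the other strand with 580.3% of its counts, went the opposite way (log2 fold change 0.31).

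The other factors overlapped between the groups. Ddit3, which encodes the pro-apoptotic factor CHOP, stood at 44.9 to 62.3 CPM in controls and 23.1 to 47.5 CPM under inhibition (log2 fold change -0.46); Mars, which overlaps it on the other strand with 165% of its counts, had 0.04. A second gene ID of that symbol had 0 counts. Atf5 had -0.44, with 46.7 to 63.0 and 27.1 to 54.2 CPM, while its other-strand neighbour Nup62, with 241% of its counts, had 0.00404. Atf3, an immediate stress factor, had -0.38, with 18.3 to 28.0 and 13.9 to 19.5 CPM. Cebpg, the dimer partner that helps ATF4 act on amino acid genes, had -0.11 (standard error 0.16), with 42.8 to 61.8 and 41.6 to 57.2 CPM. Without inhibition 1 the values were -0.22 for Ddit3, -0.24 for Atf5 and -0.01 for Cebpg. Without inhibition 3 they were -0.75 for Atf5, -1.12 for Cebpb and -0.25 for Cebpg. Leaving out control 2 gave -0.22 for Atf3 and 0.01 for Cebpg, and leaving out control 1 gave -0.24 for Cebpg.

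Feedback genes and stress effectors had a median log2 fold change of -0.41. Eif4ebp1, which blocks cap-dependent translation when mTORC1 is low, stood at 165, 201 and 165 CPM in controls and 105, 135 and 158 CPM under inhibition, without overlap (log2 fold change -0.41, standard error 0.15, edgeR adjusted p = 0.271). Sesn2, which holds mTORC1 back when leucine is short, stood at 49.9, 50.5 and 51.0 CPM in controls and 30.8, 41.6 and 46.4 CPM under inhibition. Its controls were the tightest of this group (50.5 ± 0.554 CPM, SD, n = 3), and every inhibition library was below them (log2 fold change -0.35, standard error 0.13, edgeR adjusted p = 0.275).

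Trib3, a pseudokinase that binds ATF4 and dampens it, is given in full because of its size, a choice made after its values were seen. It stood at 126, 135 and 109 CPM in controls and 33.3, 69.3 and 93.8 CPM in inhibition 1, 2 and 3. The groups did not overlap, yet the spread within the inhibition group was so wide that the log2 fold change of -0.90 had a standard error of 0.38 (edgeR adjusted p = 0.341). Ppp1r15a (GADD34), the phosphatase subunit that reverses eIF2 phosphorylation, had -0.50, with 46.0 to 56.7 CPM in controls and 22.6 to 49.98 CPM under inhibition. Chac1, which degrades glutathione, had -0.20, with 33.97 to 47.5 and 28.5 to 42.9 CPM. Without inhibition 1 the values were -0.60 for Trib3, -0.21 for Sesn2, -0.26 for Ppp1r15a and -0.06 for Chac1. Without inhibition 3 Ppp1r15a had -0.81, and Chac1 had -0.34 without control 1 or without inhibition 2 and -0.13 without control 2.

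The last 3 genes were read together for their varied ties to ATF4, and their median log2 fold change was -0.29. Xpot, which exports tRNA from the nucleus, stood at 184, 194 and 186 CPM in controls and 133, 148 and 180.4 CPM under inhibition. All controls were above all inhibition libraries, by a small margin for inhibition 3 (log2 fold change -0.29, standard error 0.11, edgeR adjusted p = 0.255). Gdf15, a secreted stress hormone, was scarce, at 1.63, 2.08 and 3.10 CPM in controls and 1.33, 1.49 and 2.62 CPM under inhibition. The groups overlapped and the standard error exceeded the value (log2 fold change -0.32, standard error 0.37, edgeR adjusted p = 0.706). Vldlr, a lipoprotein receptor, had -0.09 (standard error 0.25), with 9.29 to 13.9 and 7.43 to 14.7 CPM. Single libraries moved both widely: Gdf15 ran from -0.70 (without inhibition 3) to -0.02 (without control 3), and Vldlr from -0.39 (without inhibition 2) to 0.11 (without inhibition 1).

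Abundance was compared on RPKM, which is CPM per kilobase of exon. In controls the highest level was that of Atf4, at 204 ± 19.8 RPKM (SD, n = 3), followed by Phgdh at 151 ± 4.28, Slc7a5 at 139 ± 12.1 and Slc3a2 at 107 ± 10.8 RPKM. Neither Phgdh and Slc7a5 nor Slc3a2 and the next gene, Asns (99.4 ± 13.6 RPKM), differed beyond their spread. The lowest were Slc6a9 at 3.49 ± 0.359, Gdf15 at 1.23 ± 0.406 and Vldlr at 1.14 ± 0.231 RPKM, of which Gdf15 and Vldlr lay within each other's spread. Of the genes with separated groups, Phgdh ranked 2 and Slc7a11 ranked 31 of the 34 by this level.

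ATF4 binds, with a C/EBP partner, a composite site known as the C/EBP-ATF response element. The core TGATGNAA was searched on both strands in RefSeq promoter windows (GRCm38.p6, 250 bases before to 50 after each start), which hold 29 of the 34 genes. It was found in 9 of the 29 (31.0%), against 4.51% of 27025 genes in that table. The genes were listed for their ties to ATF4, so the higher share is a description and no independent support. These are the stretches before the start that hold it, shown so that the matched letters can be compared between the genes, whether or not their groups overlapped; capitals mark the core, which reads TTGCATCA where it lies on the opposite strand.
Asns, chr6:7693210-7693258, minus strand: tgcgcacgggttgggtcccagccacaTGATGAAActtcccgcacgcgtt
Pycr1, chr11:120643818-120643877, minus strand: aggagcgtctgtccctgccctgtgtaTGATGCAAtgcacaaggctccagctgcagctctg
Slc7a11, chr3:50443627-50443705, minus strand: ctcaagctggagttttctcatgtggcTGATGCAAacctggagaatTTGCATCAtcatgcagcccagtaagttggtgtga
Atf3, chr1:191183410-191183469, minus strand: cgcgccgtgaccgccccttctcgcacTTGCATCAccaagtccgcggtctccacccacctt
Nupr1, chr7:126625547-126625606, minus strand: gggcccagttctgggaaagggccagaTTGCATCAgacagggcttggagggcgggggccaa
Chac1, chr2:119351023-119351082, plus strand: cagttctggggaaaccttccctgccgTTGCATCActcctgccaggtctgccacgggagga
Vldlr, chr19:27216794-27216853, plus strand: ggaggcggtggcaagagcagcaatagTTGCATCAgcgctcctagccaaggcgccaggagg

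Slc7a11 holds 2 copies in opposite directions, which begin 66 and 47 bases before the start and do not overlap. The match of Slc1a4 lies across the start and that of Trib3 just after it, and neither is printed. Asns has an A at the open position of the core and the other genes printed have a C. In the 9 genes with the core the median log2 fold change was -0.44 (from -0.90 for Trib3 to -0.09 for Vldlr), and in the 20 without it -0.31 (from -0.74 for Cebpb to -0.03 for Shmt2); the difference was not tested. A match describes letters in this window, and a gene without one, such as Phgdh, Psph or Psat1, may hold it elsewhere. The endoplasmic reticulum stress element (ERSE), searched in the same way, was found in 0 of the 29 and in 0.137% of all genes.

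**Figure D4:**
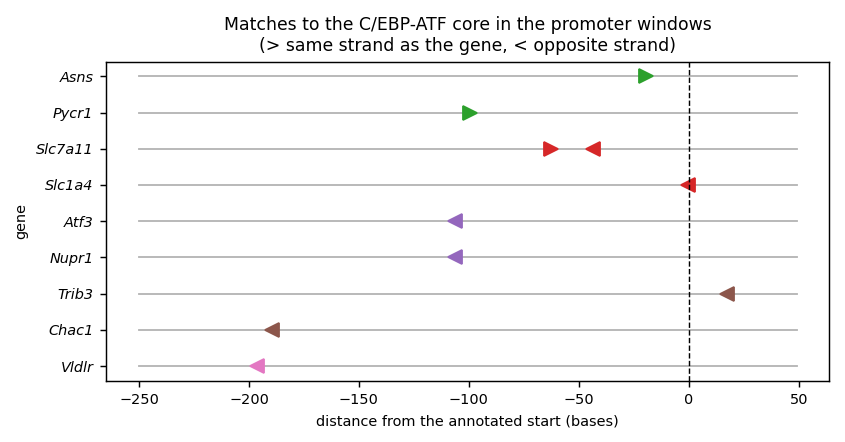
Position of each match to the core TGATGNAA in the 9 genes that hold it, in bases from the annotated start (dashed line); grey lines are the windows searched, colours mark roles and arrows the strand. Matches lie from 200 bases before the start (Vldlr) to just after it (Trib3), and Slc7a11 has 2.

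Other genes of the pathway were read from lists drawn up with the design. Earlier results of these data were known by then, so the counts are a description and no independent support. Among 10 tested ATF4 targets outside the 34, 10 had a negative log2 fold change (median -0.27), 4 were lower at an unadjusted edgeR p under 0.05 and 0 higher (7.00% and 8.36% of all genes), and in 4 every inhibition library was below every control (11.0% of all genes). Fam129a (Niban), which eases stress-induced death, stood at 88.5, 87.5 and 65.2 CPM in controls and 34.6, 47.8 and 56.4 CPM under inhibition (log2 fold change -0.79, edgeR adjusted p = 0.186). Sqstm1, the autophagy receptor p62, had -0.29 (0.186). Ero1l and Ddit4, the other genes in that count, named after their values were seen, are also targets of hypoxia-inducible factor, and had -0.78 and -0.67. DESeq2 called these 4 lower, and 1.23% of all genes.

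Of 20 cytosolic tRNA synthetases 16 were negative (median -0.09), and 4 were lower at that p: Gars and Sars and, named after their values were seen, Eprs and Qars. Over all genes tested 49.0% were negative and 7.00% were lower at that p. Sars, which charges the serine tRNA, stood at 428, 461 and 418 CPM in controls and 272, 326 and 388 CPM under inhibition (log2 fold change -0.41, edgeR adjusted p = 0.204). Gars, the glycine enzyme, had -0.35 (0.178). DESeq2 called Gars and Sars lower (adjusted p = 0.0181 and 0.0354), where 1.23% of all genes were called lower by that tool. Of 15 genes of eIF2 signalling (kinases, translation factors and their regulators) 13 were negative with a median of -0.07, and 1, Eif2s2 (-0.22), was lower at that p. Eif2ak3, the endoplasmic reticulum kinase PERK, had -0.16.

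The other folate genes and the glycine cleavage genes had a median of 0.03 over 17 tested, with 1 lower (Dld, -0.24) and 2 higher at that p, Mthfd2l and, named after its values were seen, Amt (0.67). Each count in this paragraph stands beside 7.00% of all genes lower and 8.36% higher at that p. The scarce Mthfd2l, an isozyme of Mthfd2, had 0.996, with 0.581 to 0.784 CPM in controls and 1.19 to 1.74 CPM under inhibition. The other amino acid transporters had a median of 0.06 over 21 tested, with 1 lower and 1 higher (Slc38a10 -0.16, Slc7a8 0.48). Glutamate, proline and glutathione enzymes had a median of -0.11 over 18, with 1 lower (Bcat1 -0.23), and Bcat2 had -0.19. Paralogs of the 34 genes had a median of -0.04 over 12, with 0 lower and 1 higher (Cebpa, 0.64), and Cebpd had -0.45. Chaperone genes of the ATF6 and XBP1 branches had a median of 0.01 over 15, with 2 lower (Hspa5 -0.28, Sel1l -0.22) and 1 higher (Calr, 0.21, named after its values were seen). Over all genes tested edgeR called 0 genes of these lists and DESeq2 the 6 named above, and the difference between any of them and the 34 genes was not tested.

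**Figure D5:**
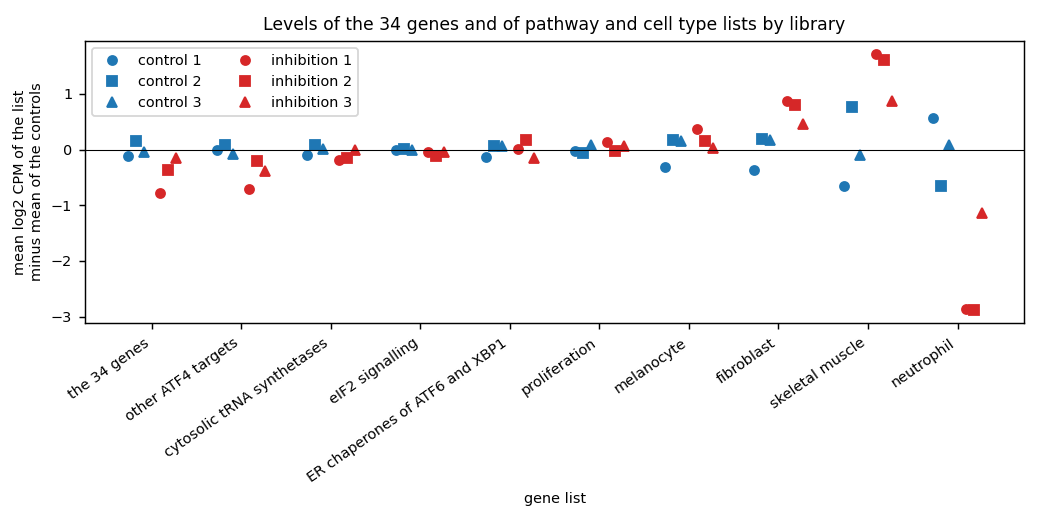
Mean log2 CPM of each list in each library, minus the mean of the 3 controls; blue marks control and red inhibition libraries, and shapes the replicate number. The 34 genes lie between -0.77 and -0.15 under inhibition and the muscle list between 0.88 and 1.72, while proliferation and melanocyte genes overlap between the groups.

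Muscle, fibroblast, endothelial and neutrophil lists moved with the groups, and their part in the values of the 34 genes was not tested. The fits given here are a description. The muscle list stood at -0.66, 0.76 and -0.11 in control 1, 2 and 3 and at 1.72, 1.60 and 0.88 in inhibition 1, 2 and 3, on the log2 scale against the mean of the controls. Within the inhibition group, the library with the most muscle and fibroblast RNA (fibroblast levels 0.88, 0.80 and 0.45) had the lowest level of the 34 genes, and the one with the least had the highest. Among the controls, control 2 had both the most muscle and the highest level of the 34 genes. The melanocyte list was highest in inhibition 1 (0.36), where the 34 genes were lowest. Counts were also scaled to the summed melanocyte genes, which moved the median of all genes to -0.25. The median of the 34 genes was then -0.60. With that scaling edgeR called 8 of the 34 genes lower (Psph, Aldh1l2, Asns, Cth, Slc7a11, Cebpb, Nupr1 and Trib3). Of all genes 2.66% were called in either direction, and the share called lower is not given. Because that scaling lowered the median of all genes, its count cannot be set beside that of the main fit. With a muscle score per library added to the fit the median was -0.35, 33 of the 34 were negative, and 1 gene, Pycr1, was lower at an unadjusted p under 0.05 (1.99% of all genes were). The largest values in that fit were those of Cth (-1.10), Pycr1 (-0.77), Nupr1 (-0.73) and Slc7a11 (-0.71), while Aldh1l2 stood at -0.56 and Trib3 at -0.57. The muscle level did not overlap between the groups, so the fit with the muscle score cannot tell muscle content apart from the group.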

How the data were processed

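RNA-seq was available for 3 control and 3 inhibition grafts. The deposited table held raw counts per Ensembl gene, which the values show as whole numbers with a different total per library; genome build mm10 and HISAT2 2.0 are named per the submitters' processing notes, and the counting program, annotation and strand setting are not given in the sources used here. Columns were matched to samples by name; the treated columns speak of nociceptive denervation and the titles of nerve inhibition. No column was left unused (0). Of 55487 IDs, 55141 matched a symbol; for Ddit3, which had 2 IDs, the longer model was used. Exon lengths and overlaps came from GENCODE M21 (GRCm38). Each count was worth between 0.0477 and 0.0691 CPM.

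Genes were kept with filterByExpr (minimum count 10, total 15), scaled with TMM factors and compared with the quasi-likelihood test of edgeR 4.0.16 (R 4.3.3), robust to outlier dispersions, and p-values were adjusted by Benjamini-Hochberg over 15666 genes. Standard errors came from the fold change and its F statistic. RPKM is CPM per kilobase of merged exons. List levels are means of log2 CPM with a prior count of 2. No library was a repeat of another (chi-square per degree of freedom between pairs, 8.29 to 43.1).

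The 34 genes and all lists were chosen with earlier results of these data known. By the naming rule every gene of the 34 is named, with full values for the 2 smallest p of each role and for Atf4, and the 2 smallest p of each pathway list are named. Alternatives were other scalings and filters, limma-voom 3.58.1, DESeq2 1.42.0, a replicate block, each library left out, a muscle covariate, a threshold of 0.1, and promoter windows without the bases after the start.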

Additional observations from a re-analysis of the deposited data

How the results depend on the processing

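The median log2 fold change of the 34 genes was negative under every alternative run. It ran from -0.60 (scaled to melanocyte genes, where the median of all genes was -0.25) to -0.23 (without inhibition 1). With single libraries left out it ran from -0.48 to -0.23. In the fits listed next at most 0.0894% of all genes were called at 0.05 (replicate block), and the share at 0.1 is not given. The number called at an adjusted p under 0.05 was 0 with the main settings, RLE or upper-quartile factors, the stricter filter, limma-voom (14 lower at an unadjusted p under 0.05, 6.66% of all genes), the replicate block, tissue genes left out of scaling, the muscle covariate and a threshold of 0.1. It was 6 with DESeq2 (3.45% of all genes were called in either direction), 13 with no filter (4.12%), 8 scaled to melanocyte genes (2.66%) and 0 to 6 with single libraries left out (6 without inhibition 3, 1.37%). The number lower at an unadjusted p under 0.05 was 12 (7.00% of all genes), against 20 with DESeq2 (6.51%), 22 with no filter (5.54%), 24 with the replicate block (6.03%), 25 scaled to melanocyte genes (9.34%), 1 with the muscle covariate (1.99%) and 6 to 23 with single libraries left out (8.55% without control 2, 7.25% without inhibition 3). The cause of these shifts was not tested. Of the single genes, the sign turned for the log2 fold change of Gdf15 with the muscle covariate (0.0424), and, with single libraries left out, for that of Shmt2 (-0.16 to 0.0278, the latter without inhibition 1), Cebpg (-0.25 to 0.00546, without control 2) and Vldlr (-0.39 to 0.11).

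Whether the numbers shared by the labels pair the libraries is not known. Same-numbered pairs had correlations of -0.18, 0.33 and 0.09 between their deviations from the group means. Some libraries correlated best with their own number and others did not. Deviations from the mean of so small a group depend on each other, so these correlations cannot decide the question. The replicate block is given for completeness, and it called 14 genes in all against 6 without it. With only the 250 bases before the start searched, 7 of the 29 genes held the core in place of 9. The share over all genes with promoter windows was then 3.91% in place of 4.51%. Gdf15 had the lowest count of the 34 genes in any library, 19, and its standard error of 0.37 was larger than its log2 fold change.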
